A study of Homo sapiens with 14 samples.

Results

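Messenger RNA levels of p53 target genes were followed in MiaPaCa2 cells, a human pancreatic cancer line, during starvation and after silencing of NUPR1, RELA or RELB. The list held 30 genes that p53 is known to activate, taken by gene symbol from the array annotation. Of these, 28 had a transcript cluster of their own on the array, none had more than 1, and 24 passed a filter on dim genes, out of 18377 genes measured and 11026 tested. BTG2 and FDXR were not analysed here, and TP53INP1, CYFIP2, SPATA18 and EDA2R were measured but too dim to be tested. Death receptor, BCL2 family and sestrin genes were kept off the list.

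p53 is a transcription factor that is held low in unstressed cells by the ubiquitin ligase MDM2, itself a p53 target, and that accumulates after DNA damage and other stress. Its targets halt the cell cycle, repair DNA, supply nucleotides, alter metabolism, feed back on p53 and promote cell death. Many of these genes also answer to other stress factors, among them ATF4, FOXO proteins and NF-kB, so that a change in a target's level does not show which factor acted.

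The samples were 14 Affymetrix whole-transcript arrays in 2 sets, and there was 1 array for each siRNA in each medium and at each time. In the Nupr1 set (8 arrays) cells received siNupr1 or a scrambled siRNA, siCtrl, and were taken before (0 h) and 3, 6 and 9 h into starvation in EBSS, a salt solution without amino acids or growth factors and, by the labels, without glucose. In the NF-kB set (6 arrays) cells received siRelA/p65 (siRelA below), siRelB or siCtrl and spent 9 h in EBSS or in mock, a medium that the labels do not describe further. All cells were transfected with INTERFERin. The protocols list a pair of siRNA designs each for Nupr1 and RelB and do not say which was used on which array. The 0 h arrays are titled with DMEM while their source field names EBSS, and the siNupr1 array at 9 h is titled with another siRNA than its source and description give, so both assignments carry a doubt. Nothing in the labels says that arrays came from separate cultures. With 1 array per combination no spread between repeated arrays exists. The p-values rest on how far arrays depart from an additive fit of siRNA and medium or time. That departure mixes array noise with any real dependence of an siRNA's effect on medium or time. Levels are log2 values, a difference of 1 being 2-fold, and levels of different genes are not compared because each is read by its own probes. Calls were made in a limma fit of all 11026 genes, at a p under 0.05 after Benjamini-Hochberg adjustment. RNA of whole cultures does not tell fewer expressing cells from less RNA per cell.

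The silenced genes were lower in the cells that received their siRNA. NUPR1 stood at 5.59, 6.33, 6.28 and 6.64 in siNupr1 cells at 0, 3, 6 and 9 h, against 6.27, 7.25, 7.49 and 7.30 in siCtrl cells. With siRelA, RELA was at 6.56 in EBSS and 6.31 in mock, against 9.19 and 8.67 with siCtrl, and RELB at 6.73 and 6.16 with siRelB, against 8.41 and 7.11. Each silenced array was below its siCtrl partner. NUPR1 differed by -0.87 ± 0.10 (adjusted p = 1.95e-05) in siNupr1 against siCtrl cells (± SE throughout). RELA differed by -2.49 ± 0.13 (adjusted p = 2.96e-10) with siRelA, and RELB by -1.32 ± 0.17 (adjusted p = 3.62e-05) with siRelB. The silencings were not confined to their own targets. RELB was also lower in siNupr1 cells, by 0.67 ± 0.12 (adjusted p = 0.000945), and NUPR1 was lower with siRelB, by 0.43 ± 0.14 (0.0442). RELA did not pass with siNupr1 or siRelB, nor did NUPR1 or RELB with siRelA. Array medians over all clusters lay between 5.67 and 5.84. Of 6 epithelial markers, the keratins KRT8, KRT18, KRT19 and KRT7 (medians 12.8, 13.0, 10.2 and 6.16) passed the filter. EPCAM (3.59) and CDH1 (4.52) did not. Of 5 mesenchymal markers, VIM (12.7) and COL1A1 (6.86) passed, and DCN (2.88), LUM (2.37) and PDGFRB (5.49) did not. Of the markers of other cell types, 1 of 4 leukocyte, 0 of 3 endothelial and 1 of 3 acinar genes passed the filter.

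In the Nupr1 set a small group of growth-control and stress genes was higher in EBSS than at 0 h. The 5 largest rises were seen in both siNupr1 and siCtrl cells. This set has no unstarved arrays at 3, 6 or 9 h, so starvation and elapsed time cannot be told apart in it. At 9 h against 0 h, 8 of the 24 tested p53 targets were higher and 1 was lower, where 9.19% of all tested genes were higher and 15.1% lower (24.3% in either direction). The median log2 difference of the 24 was 0.15, against -0.04 over all tested genes. At 3 h the members were 6 higher and 1 lower (3.27% and 9.07% of all genes, 12.3% together; medians 0.21 and -0.03), and at 6 h they were 9 higher and 2 lower (7.65% and 15.7%, 23.4% together; medians 0.09 and -0.01). The 3 times share their 0 h arrays.

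BTG1 encodes an antiproliferative protein that binds the mRNA deadenylation machinery. It stood at 7.64, 8.38, 8.46 and 9.13 in siNupr1 cells at 0, 3, 6 and 9 h, and at 7.16, 8.55, 8.63 and 9.15 in siCtrl cells. Both 0 h arrays were below all 6 starved arrays, and the difference from 0 h was 1.06 ± 0.14 at 3 h, 1.15 ± 0.14 at 6 h and 1.74 ± 0.14 at 9 h (adjusted p = 6.2e-08 at 9 h). SAT1, the acetyltransferase that starts polyamine breakdown, was at 9.01, 9.65, 9.53 and 10.42 in siNupr1 cells and 8.82, 9.81, 9.55 and 10.80 in siCtrl cells over the same hours. Its 9 h arrays were the highest of each siRNA, and its difference from 0 h was 0.82 ± 0.13, 0.63 ± 0.13 and 1.70 ± 0.13 at 3, 6 and 9 h (adjusted p = 3.77e-08 at 9 h).

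GDF15, a secreted stress cytokine of the TGF-beta family, was at 6.35, 7.24, 7.33 and 7.73 in siNupr1 cells and 6.08, 7.05, 6.94 and 7.60 in siCtrl cells at 0, 3, 6 and 9 h. The difference at 9 h was 1.45 ± 0.14 (adjusted p = 5.02e-07), with every starved array above both 0 h arrays. GADD45A, a stress sensor that acts on the cell cycle and on p38 and JNK signalling, stood at 8.60, 9.36, 9.33 and 9.78 in siNupr1 cells and 8.88, 9.84, 9.69 and 10.37 in siCtrl cells. It rose by 1.34 ± 0.12 at 9 h (adjusted p = 1.53e-07), and the siNupr1 array lay below the siCtrl array at each of the 4 times. PLK3, a stress-activated polo-like kinase, was at 7.29, 7.90, 8.18 and 8.07 in siNupr1 cells and 6.89, 7.76, 8.19 and 8.49 in siCtrl cells. Its difference was 0.74 ± 0.15 at 3 h, 1.09 ± 0.15 at 6 h and 1.19 ± 0.15 at 9 h (adjusted p = 1.12e-05), and in siNupr1 cells the 9 h array was slightly under the 6 h array.

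The textbook targets CDKN1A and MDM2 changed less. CDKN1A, which encodes the CDK inhibitor p21, stood at 6.66, 7.03, 6.89 and 7.09 in siNupr1 cells and 6.23, 6.55, 6.75 and 6.74 in siCtrl cells at 0, 3, 6 and 9 h. The 0 h siNupr1 array overlapped the starved siCtrl arrays, and within each siRNA the 0 h array was the lowest. CDKN1A differed from 0 h by 0.35 ± 0.13 at 3 h (adjusted p = 0.0905), 0.38 ± 0.13 at 6 h (0.0435) and 0.47 ± 0.13 at 9 h (0.0119). MDM2 was at 8.03, 8.34, 8.44 and 8.72 in siNupr1 cells and 8.36, 8.57, 8.66 and 9.01 in siCtrl cells, highest at 9 h with both siRNAs. Its difference was 0.67 ± 0.13 at 9 h (adjusted p = 0.000682) and 0.36 ± 0.13 at 6 h (0.0473). AEN, an apoptosis-enhancing nuclease, was already higher at 3 h, by 0.58 ± 0.12 (adjusted p = 0.00385), and differed by 0.38 ± 0.12 at 9 h (0.0287). DDB2, a damage-recognition protein of nucleotide excision repair, was called at 6 h only, by 0.36 ± 0.13 (adjusted p = 0.0482).

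A pair of members were lower during starvation. POLH, the polymerase that copies past ultraviolet lesions, was at 8.79, 8.27, 8.40 and 7.98 in siNupr1 cells and 8.82, 8.45, 8.26 and 8.27 in siCtrl cells at 0, 3, 6 and 9 h. Both 0 h arrays were above all starved arrays, and POLH fell by 0.45 ± 0.13 at 3 h, 0.48 ± 0.13 at 6 h and 0.68 ± 0.13 at 9 h (adjusted p = 0.000634). TRIAP1, a small inhibitor of apoptosis, stood at 8.63, 8.42, 7.97 and 8.45 in siNupr1 cells and 8.62, 8.23, 7.82 and 8.36 in siCtrl cells. The 6 h arrays were the lowest of both siRNAs, with a difference of -0.73 ± 0.12 (adjusted p = 0.000253), and the value at 9 h, -0.22 ± 0.12, did not pass (0.224). The calls of PLK3, AEN and POLH at 3 h, of CDKN1A, MDM2, DDB2, SAT1, AEN and POLH at 6 h and of CDKN1A and AEN at 9 h were each lost under at least 1 alternative setting or left-out array. The count of members called, 7 at 3 h and 11 at 6 h, was 4 at 3 h when either the 0 h array of siCtrl or the 3 h array of siNupr1 cells was left out, and 6 at 6 h without the siCtrl 0 h or the siCtrl 6 h array. PLK3 differed by 0.49 at 3 h without the siCtrl 0 h array, CDKN1A by 0.23 at 6 h without the siCtrl 6 h array, and AEN by 0.25 and 0.24 at 9 h without the siCtrl 0 h or the siCtrl 9 h array. At 9 h, 9 members were called without the doubtful siNupr1 9 h array, and 9 and 7 without the siNupr1 and the siCtrl 0 h array.

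**Figure D1:**
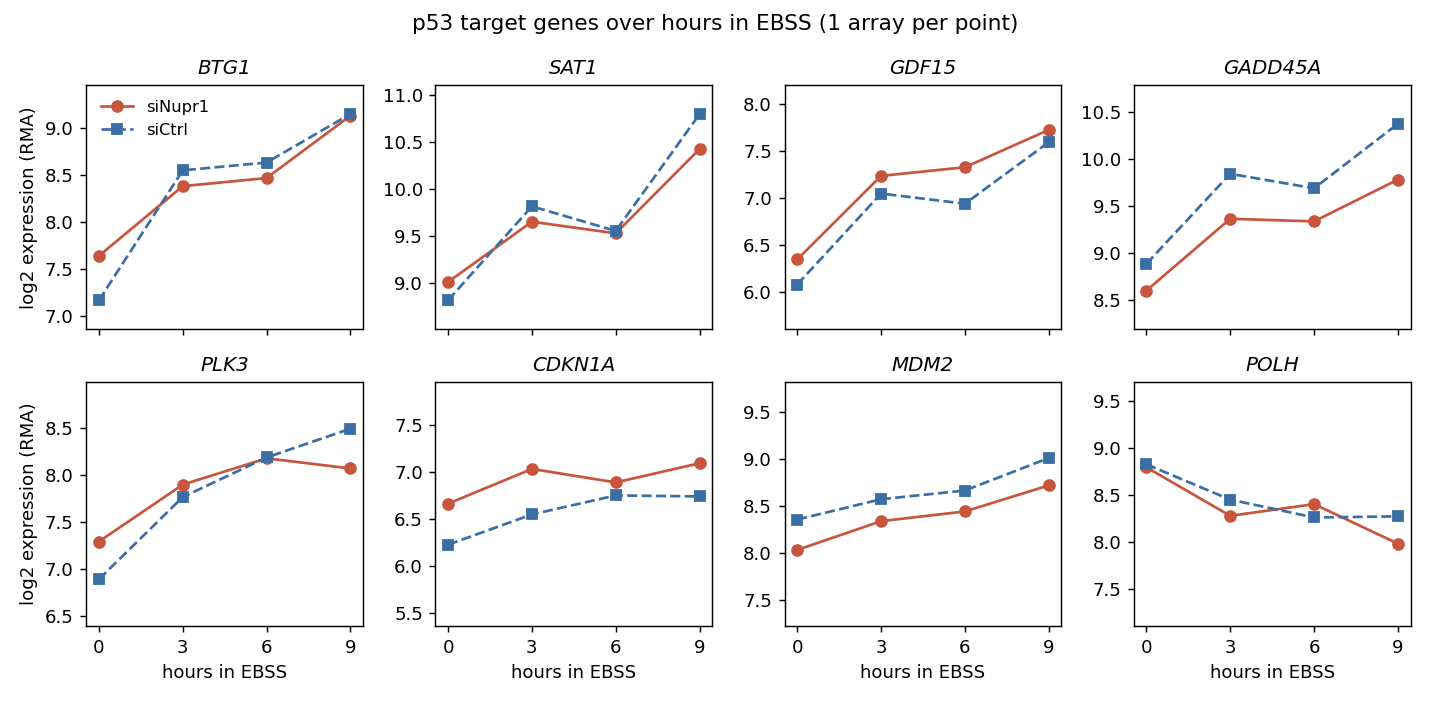
Log2 level of p53 targets (vertical axis) against hours in EBSS (horizontal axis) in siNupr1 and siCtrl cells of the Nupr1 set, 1 array per point. BTG1, SAT1, GDF15 and GADD45A were highest at 9 h with both siRNAs, and POLH was highest at 0 h.

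Between 3 and 9 h in EBSS, 5 of the 24 members rose further and 0 fell (4.68% and 2.66% of all genes, 7.34% together; medians 0.10 and -0.02). SAT1 differed by 0.88 ± 0.13 (adjusted p = 0.00061), BTG1 by 0.67 ± 0.14 (0.00735), GDF15 by 0.52 ± 0.14 (0.032) and GADD45A by 0.47 ± 0.12 (0.0191). DRAM1, a lysosomal membrane protein linked to autophagy, was at 6.60 and 6.68 at 9 h in siNupr1 and siCtrl cells, against 6.15 and 6.16 at 3 h, a difference of 0.49 ± 0.15 (0.0496). SAT1 was the member whose call held under each alternative; the count was 2 without the siCtrl 3 h array and 1 without the 9 h array of siCtrl or the 3 h array of siNupr1 cells.

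Promoters of 5 members are shown because BTG1, SAT1, GDF15 and PLK3 were among the 5 members with the largest rises at 9 h and DDB2 holds 2 p53 half-sites. Each runs from 250 bases before a RefSeq start site to 50 after it on GRCh38.p14, 5′ to 3′ on the gene's strand: BTG1 at chr12:92145797-92146096 (minus), SAT1 at chrX:23782923-23783222 (plus), GDF15 at chr19:18385908-18386207 (plus), PLK3 at chr1:44800127-44800426 (plus), and DDB2 at chr11:47214724-47215023 (plus). Capitals mark matches to any of 5 motifs searched on both strands, namely the p53 half-site and the kappa-B site by their consensus, TGATGNAA of the C/EBP-ATF element, TGACGTCA of the CRE and TATAAA.
BTG1: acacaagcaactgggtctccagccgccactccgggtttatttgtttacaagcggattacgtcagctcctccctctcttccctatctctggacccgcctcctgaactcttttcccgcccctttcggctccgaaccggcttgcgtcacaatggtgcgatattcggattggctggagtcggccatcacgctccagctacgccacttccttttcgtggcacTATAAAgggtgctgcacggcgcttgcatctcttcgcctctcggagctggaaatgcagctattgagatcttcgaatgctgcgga
SAT1: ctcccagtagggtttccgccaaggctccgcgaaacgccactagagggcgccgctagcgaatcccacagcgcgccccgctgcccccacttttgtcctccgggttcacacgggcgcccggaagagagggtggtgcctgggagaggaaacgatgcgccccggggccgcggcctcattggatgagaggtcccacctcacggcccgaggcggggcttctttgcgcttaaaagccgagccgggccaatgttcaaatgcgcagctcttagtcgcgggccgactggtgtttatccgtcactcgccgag
GDF15: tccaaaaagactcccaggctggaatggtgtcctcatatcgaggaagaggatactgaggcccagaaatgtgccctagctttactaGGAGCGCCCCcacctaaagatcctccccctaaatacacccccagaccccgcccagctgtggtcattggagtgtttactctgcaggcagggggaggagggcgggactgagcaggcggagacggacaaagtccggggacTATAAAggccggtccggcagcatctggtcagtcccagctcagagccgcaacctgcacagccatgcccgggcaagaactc
PLK3: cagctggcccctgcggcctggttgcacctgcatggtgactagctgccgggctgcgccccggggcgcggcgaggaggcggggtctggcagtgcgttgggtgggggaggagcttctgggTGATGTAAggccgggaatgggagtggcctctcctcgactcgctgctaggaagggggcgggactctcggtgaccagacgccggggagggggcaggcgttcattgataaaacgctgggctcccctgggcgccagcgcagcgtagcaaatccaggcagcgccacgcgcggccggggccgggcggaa
DDB2: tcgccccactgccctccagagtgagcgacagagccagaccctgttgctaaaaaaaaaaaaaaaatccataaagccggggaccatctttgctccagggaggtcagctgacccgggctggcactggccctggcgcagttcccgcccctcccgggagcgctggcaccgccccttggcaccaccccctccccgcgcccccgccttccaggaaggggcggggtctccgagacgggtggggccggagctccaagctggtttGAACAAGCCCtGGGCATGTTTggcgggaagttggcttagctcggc

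BTG1 holds TATAAA 33 bases before its start. GDF15 holds TATAAA 29 bases before its start and a kappa-B match 166 bases before it, on the other strand. PLK3 holds TGATGNAA 133 bases before its start, SAT1 holds none of the 5, and DDB2 holds its half-sites at 5 and 16 bases after the start, counting the start as 0. Of the 30 members 26 had a promoter in the table, all but RRM2B, GADD45A, PHLDA3 and TP53INP1. Some genes have more than 1 start site, and the 26 members had 37 windows. The p53 half-site was found in 4 of the 26 (PLK2, DDB2, AEN and FDXR), where 8.06% of all 27305 genes in the table have it in at least 1 window. Counted by window, it was in 4 of 37, against 6.63% of all 35116. The kappa-B site was found in 3 members (ZMAT3, GADD45B and GDF15; 13.3% of all genes), TATAAA in 3 (BTG1, GADD45B and GDF15; 14%), TGATGNAA in 1 (PLK3; 4.46%) and TGACGTCA in 1 (PPM1D; 2.25%). These are matches of letters in a short window, and no binding was measured.

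In the NF-kB set more members were called than at 9 h in the Nupr1 set, and so were more of all tested genes. Members and all genes alike went in both directions. In EBSS against mock at 9 h, over 3 pairs of arrays, 8 of 24 members were higher and 9 lower, and 51.9% of all tested genes were called (22.6% higher, 29.3% lower). The median of the members was 0.08, against 0.05 over all genes. Every one of the 17 called members had the same sign in each of the 3 pairs.

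The largest rises were those of PLK3, BTG1 and GDF15. PLK3 stood at 7.78 with siRelA, 7.62 with siRelB and 8.11 with siCtrl in EBSS, against 6.87 with siRelA, 6.57 with siRelB and 6.97 with siCtrl in mock. All 3 EBSS arrays lay above all 3 mock arrays, a difference of 1.03 ± 0.12 (adjusted p = 1.06e-06). BTG1 was at 8.37 with siRelA, 8.50 with siRelB and 8.83 with siCtrl in EBSS, against 7.61 with siRelA, 7.60 with siRelB and 7.81 with siCtrl in mock, again without overlap, and differed by 0.89 ± 0.12 (adjusted p = 3.3e-06). GDF15 was at 7.0 with siRelA, 6.69 with siRelB and 7.02 with siCtrl in EBSS, against 6.14 with siRelA, 6.28 with siRelB and 5.98 with siCtrl in mock. Its groups were closest in siRelB cells, and it differed by 0.77 ± 0.12 (1.85e-05). CDKN1A stood at 7.0 with siRelA, 6.91 with siRelB and 7.12 with siCtrl in EBSS, against 6.26 with siRelA, 6.44 with siRelB and 6.46 with siCtrl in mock. The groups did not overlap, and the difference was 0.62 ± 0.11 (adjusted p = 7.59e-05). It exceeded the one at 9 h in the Nupr1 set by 0.15 ± 0.17, which did not pass (0.526).

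Repair and survival genes were on both sides. DDB2 was at 8.49 with siRelA, 8.43 with siRelB and 8.50 with siCtrl in EBSS, against 7.82 with siRelA, 8.11 with siRelB and 7.88 with siCtrl in mock, and rose by 0.54 ± 0.10 (adjusted p = 0.000299). PHLDA3, an inhibitor of the kinase AKT, was at 7.29 with siRelA, 7.34 with siRelB and 7.56 with siCtrl in EBSS, against 6.75 with siRelA, 6.89 with siRelB and 7.01 with siCtrl in mock, without overlap, and rose by 0.52 ± 0.11 (0.000821). SAT1 was at 9.57 with siRelA, 9.74 with siRelB and 10.18 with siCtrl in EBSS, against 9.26 with siRelA, 9.42 with siRelB and 9.43 with siCtrl in mock. SAT1 rose by 0.46 ± 0.11 (0.0016) and GADD45A by 0.37 ± 0.10 (0.00378), the smallest rises of the 8. APAF1, the scaffold of the apoptosome, was at 6.62 with siRelA, 6.98 with siRelB and 6.92 with siCtrl in EBSS, against 7.46 with siRelA, 7.75 with siRelB and 7.53 with siCtrl in mock, and fell by 0.74 ± 0.10 (7.95e-06). RRM2B, the p53-induced subunit of ribonucleotide reductase, was at 5.72 with siRelA, 6.29 with siRelB and 6.66 with siCtrl in EBSS, against 6.24 with siRelA, 7.02 with siRelB and 7.30 with siCtrl in mock. Its fall of 0.63 ± 0.11 (0.000147) was seen within each siRNA, while the siRelA mock array lay below both other EBSS arrays.

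The remaining falls were smaller. ZMAT3, an RNA-binding zinc finger protein, fell by 0.59 ± 0.11 (adjusted p = 0.000152), POLH by 0.50 ± 0.11 (0.000648), the kinase PLK2 by 0.40 ± 0.09 (0.0011), and XPC, which recognises damage in excision repair, by 0.40 ± 0.11 (0.00431). CCNG1, cyclin G1, fell by 0.37 ± 0.08 (0.00125) and PPM1D, the phosphatase WIP1 that dampens p53 signalling, by 0.32 ± 0.10 (0.0144). MDM2 fell by 0.40 ± 0.10 (0.00355), with -0.45 in siRelA, -0.64 in siRelB and -0.11 in siCtrl cells. The calls of MDM2, GADD45A, XPC and PPM1D were each lost under at least 1 alternative, MDM2 among them without the siRelB mock array. PLK2 stayed called but differed by -0.26 without either siRelA array.

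**Figure D2:**
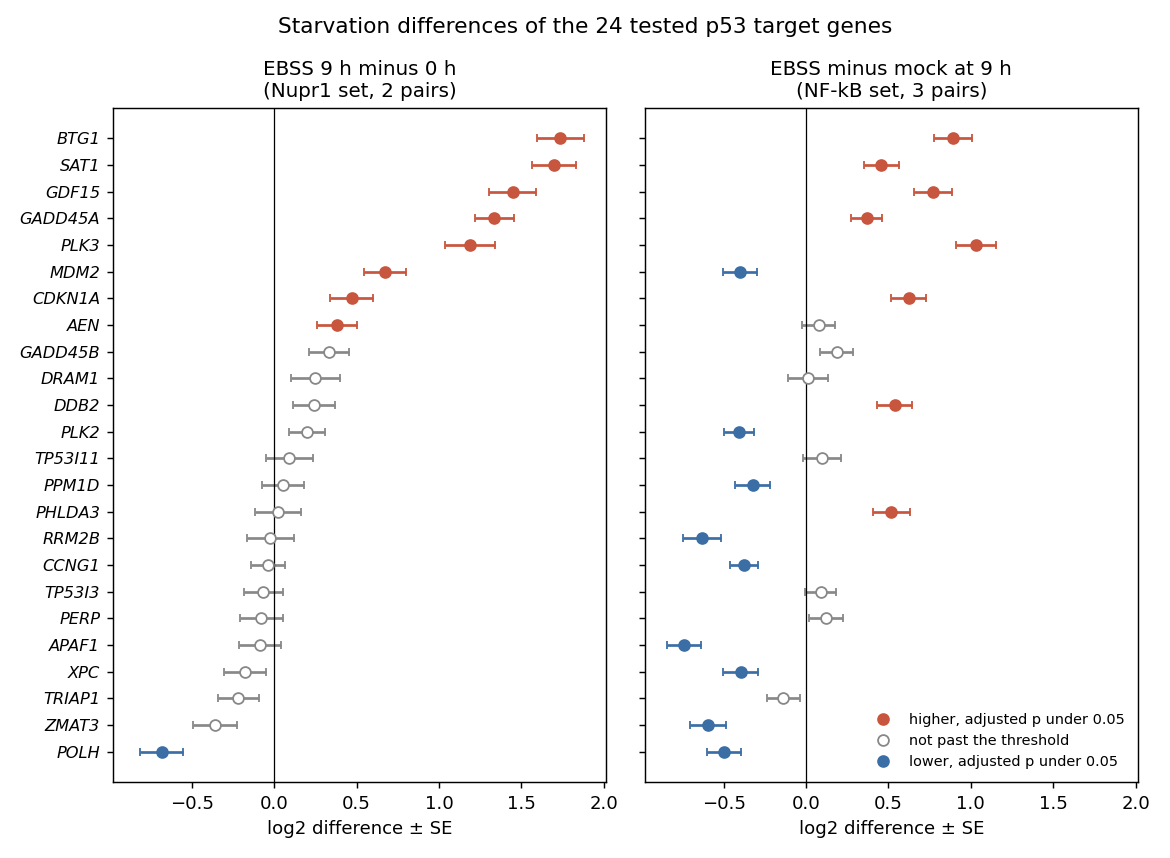
Log2 difference (horizontal axis) of each tested p53 target in EBSS at 9 h against mock in the NF-kB set and against 0 h in the Nupr1 set, with SE bars. PLK3, BTG1 and GDF15 lie to the right in both sets, and MDM2 lies on opposite sides.

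The 2 sets were compared directly, as the EBSS against mock difference minus the 9 h against 0 h difference. Of 24 members, 1 was higher and 8 were lower (8.11% and 16.4% of all genes, 24.5% together; medians -0.24 and 0.08). MDM2 rose against 0 h and fell against mock, and differed by -1.07 ± 0.16 between sets (adjusted p = 8.93e-05). SAT1 differed by -1.24 ± 0.17 (2.62e-05), GADD45A by -0.97 ± 0.15 (0.00011), BTG1 by -0.85 ± 0.18 (0.00215) and GDF15 by -0.68 ± 0.18 (0.0111), all having risen in both sets. APAF1, RRM2B and PLK2 were lower by 0.65 ± 0.16, 0.61 ± 0.18 and 0.60 ± 0.14, and PHLDA3 was higher by 0.50 ± 0.18. PHLDA3 stood at 6.62, 6.90, 6.81 and 6.90 in siNupr1 cells and 6.78, 7.03, 7.01 and 6.55 in siCtrl cells of the Nupr1 set at 0, 3, 6 and 9 h, lowest at 9 h in siCtrl cells. In siCtrl cells alone, which both sets hold (1 pair of arrays in each, no test), the difference between sets was -1.24 for SAT1, -0.96 for BTG1, -0.91 for GADD45A, -0.77 for MDM2, -0.55 for PLK2, -0.47 for GDF15, -0.45 for APAF1, -0.37 for RRM2B and 0.79 for PHLDA3. All 9 had the sign of the fitted value. The unstarved arrays are mock for 9 h in one set and 0 h in the other, so set, medium and time cannot be told apart here. The PHLDA3 call was lost in 16 of 20 alternatives, and its value was 0.24 without the siCtrl 9 h array of the Nupr1 set and 0.75 without the siNupr1 9 h array. BTG1 differed by -0.55 without the siCtrl 0 h array and RRM2B by -0.36 without the siNupr1 0 h array (adjusted p = 0.226). The siCtrl EBSS 9 h arrays of the 2 sets, the same labelled condition, differed by -0.71 to 1.01 over the 24 members (NF-kB set minus Nupr1 set).

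Members that fell in EBSS against mock had a longer median genomic span than those that rose, though the ranges overlapped. The 8 higher members spanned a median of 5.24 kb (3.019 to 24.764), the 9 lower members 42.515 kb (6.105 to 90.144) and the 7 not called 18.915 kb, against 24.747 kb over 11017 tested genes with a span. Over the 24 members the Spearman correlation of the difference with genomic span was -0.67, and over all tested genes it was -0.42. The points share their arrays, and the values are a description. After the trend with span over all genes was subtracted, 15 of the 17 members were still called. GADD45A (0.18) and PPM1D (-0.13) were not, and their adjusted p were 0.118 and 0.265.

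**Figure D3:**
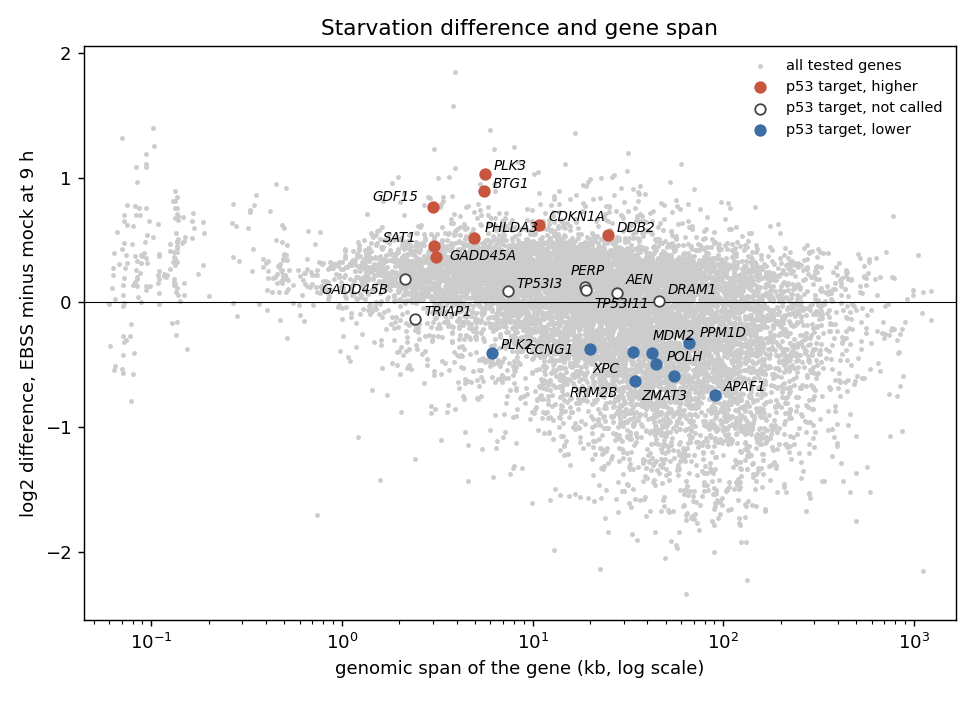
Log2 difference in EBSS against mock at 9 h (vertical axis) against genomic span in kb on a log axis (horizontal axis) for the 24 tested p53 targets, with all tested genes in grey. Short members such as BTG1, PLK3 and GDF15 lie above 0, and long members such as APAF1 and RRM2B lie below it.

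NUPR1 silencing lowered 6 of the 24 members and raised 2 over the 4 times of the Nupr1 set (8.58% and 9.86% of all genes, 18.4% together; medians -0.05 and 0.01). The fitted changes of the called members were under 1.5-fold, and every called member had the same sign at all 4 times. Their single differences reached -0.72 (PLK2 at 3 h). GADD45A, given above by array, was lower by 0.43 ± 0.08 in siNupr1 against siCtrl cells (adjusted p = 0.00157). PLK2, a polo-like kinase of the stress response, stood at 11.15, 11.09, 11.19 and 11.26 in siNupr1 cells at 0, 3, 6 and 9 h, against 11.37, 11.80, 11.50 and 11.65 in siCtrl cells. The groups did not overlap, and the difference was -0.41 ± 0.08 (0.0014). APAF1 was at 6.94, 6.53, 6.83 and 6.93 in siNupr1 cells, against 7.32, 7.16, 7.21 and 7.17 in siCtrl cells, likewise without overlap, and differed by -0.41 ± 0.09 (0.00395).

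ZMAT3 was lower by 0.36 ± 0.09 (adjusted p = 0.0109). Both feedback genes fell, MDM2 by 0.27 ± 0.09 (0.0439) and PPM1D by 0.26 ± 0.09 (0.0467). The 2 members that rose were CDKN1A and TP53I3. CDKN1A was higher by 0.35 ± 0.09 (0.0118), with single differences of 0.44, 0.48, 0.14 and 0.35 at 0, 3, 6 and 9 h. TP53I3, a quinone oxidoreductase that generates reactive oxygen species, was at 8.80, 8.95, 8.73 and 8.59 in siNupr1 cells, against 8.35, 8.49, 8.45 and 8.43 in siCtrl cells, above at every time, and differed by 0.33 ± 0.08 (0.00888). GDF15 was also higher at all 4 times, but its 0.24 ± 0.10 did not pass (0.101). The calls of GADD45A and PLK2 held under each alternative; the count of 8 was 2 without the siNupr1 3 h or the siCtrl 3 h array, and 6 without the siNupr1 9 h array whose title is in doubt.

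Whether the siNupr1 difference changed with hours in EBSS was tested as a slope. No member was called, as no gene was (0% of 11026), and 2 of 24 members, PLK3 and SAT1, had an unadjusted p under 0.05, against 19.5% of all genes. The slope was -0.087 ± 0.022 log2 per hour for PLK3 and -0.052 ± 0.023 for SAT1. No other tool was run on it.

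**Figure D4:**
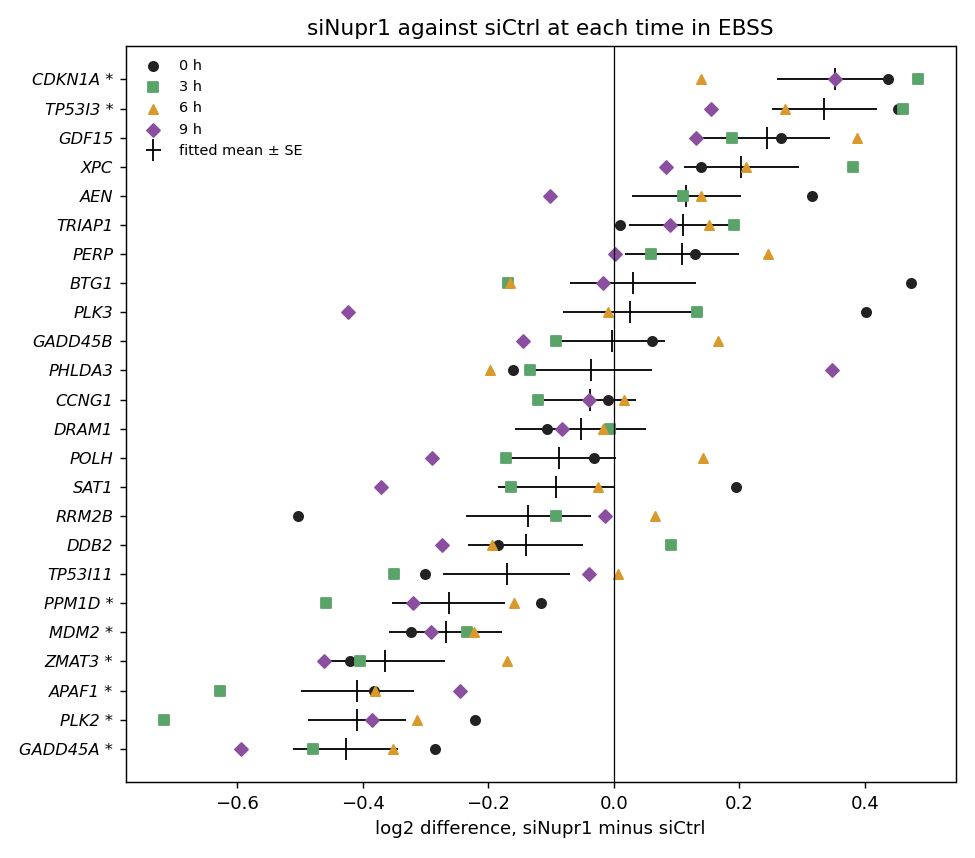
Log2 difference of siNupr1 against siCtrl cells (horizontal axis) for each tested p53 target, with 1 point for each of the 4 times and the fitted value with its SE; a star marks members past the threshold. PLK2 and APAF1 lie below 0 and CDKN1A and TP53I3 above 0 at every time.

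RELA silencing lowered 6 members and raised 1 of 24 (11.4% and 10.1% of all genes, 21.5% together; medians -0.17 and 0.01). RELB silencing lowered 4 and raised 3 (8.55% and 7.58%, 16.1% together; medians -0.17 and 0.00). Both comparisons use the same 2 siCtrl arrays, so a difference found in both is not independent. GADD45A stood at 8.78 in EBSS and 8.57 in mock with siRelA and at 9.05 and 8.73 with siRelB, against 9.85 and 9.27 with siCtrl. All 4 silenced arrays were under both siCtrl arrays, and the differences were -0.89 ± 0.12 with siRelA (adjusted p = 2.92e-05) and -0.68 ± 0.12 with siRelB (0.000502). MDM2 was at 7.52 with siRelA, 7.37 with siRelB and 8.30 with siCtrl in EBSS and 7.97 with siRelA, 8.01 with siRelB and 8.41 with siCtrl in mock. It too was lower in all 4 silenced arrays, by 0.61 ± 0.13 with siRelA (0.00194) and 0.67 ± 0.13 with siRelB (0.00116).

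With siRelA, RRM2B had the largest fall. It differed by -1.0 ± 0.14 from siCtrl (adjusted p = 5.12e-05), and the single differences were -0.94 in EBSS and -1.06 in mock. CCNG1 was at 8.85 with siRelA, 9.23 with siRelB and 9.49 with siCtrl in EBSS and 9.31 with siRelA, 9.62 with siRelB and 9.75 with siCtrl in mock and fell by 0.53 ± 0.10 with siRelA (0.00103). PPM1D fell by 0.46 ± 0.13 (0.0131) and SAT1 by 0.39 ± 0.13 (0.0405).

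With siRelB, DRAM1 fell and XPC and TP53I3 rose. DRAM1 was at 6.07 with siRelA, 5.73 with siRelB and 6.63 with siCtrl in EBSS and 6.38 with siRelA, 5.75 with siRelB and 6.27 with siCtrl in mock and differed by -0.71 ± 0.15 (adjusted p = 0.00234). Both siRelB arrays were the lowest of the set. XPC stood at 6.35 with siRelA, 6.91 with siRelB and 6.35 with siCtrl in EBSS and 6.94 with siRelA, 7.21 with siRelB and 6.64 with siCtrl in mock and differed by 0.56 ± 0.13 (0.00462), with the siRelB array on top in each medium. TP53I3 was at 8.91 with siRelA, 9.36 with siRelB and 8.95 with siCtrl in EBSS and 8.80 with siRelA, 9.39 with siRelB and 8.76 with siCtrl in mock, highest with siRelB in both, and differed by 0.52 ± 0.12 (0.00464). PLK3 was lower by 0.45 ± 0.15 (0.0493). For XPC both siCtrl arrays of the NF-kB set lay below every siCtrl array of the Nupr1 set (6.72 to 7.15). The part of the siCtrl arrays in the XPC difference was not tested.

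PERP, a membrane protein of desmosomes, was the member raised by both siRNAs. It was at 9.62 with siRelA, 9.83 with siRelB and 8.96 with siCtrl in EBSS and 9.86 with siRelA, 9.64 with siRelB and 8.55 with siCtrl in mock, and the differences were 0.99 ± 0.13 with siRelA (adjusted p = 2.63e-05) and 0.98 ± 0.13 with siRelB (3.95e-05). The 2 siCtrl arrays of the NF-kB set were the lowest of all 14 arrays for PERP, and the other 12, the 4 siCtrl arrays of the Nupr1 set among them, lay between 9.43 and 9.86. Both PERP differences use these 2 siCtrl arrays, and the part of those arrays in the result was not tested. TP53INP1, a promoter of autophagy and cell death, did not pass the filter. Its levels were 5.59 with siRelA, 5.10 with siRelB and 6.15 with siCtrl in EBSS and 5.35 with siRelA, 4.93 with siRelB and 6.11 with siCtrl in mock, with all 4 silenced arrays below both siCtrl arrays. Without the filter it differed by -0.66 ± 0.17 with siRelA (adjusted p = 0.017) and -1.11 ± 0.17 with siRelB (0.000439). The other dim members stayed between 5.06 and 5.81 (CYFIP2, a subunit of an actin-regulating complex), 4.08 and 4.79 (SPATA18, of mitochondrial quality control) and 4.50 and 5.06 (EDA2R, a receptor of the TNF receptor family) over the 14 arrays.

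Calls that held under each alternative were those of RRM2B, GADD45A, CCNG1 and PERP with siRelA and of GADD45A and PERP with siRelB. The siRelA count of 7 was 4 without the siCtrl EBSS array, and the siRelB count of 7 was 4 without the siCtrl EBSS, the siCtrl mock or the siRelB EBSS array. Without the siCtrl EBSS array, SAT1 differed by -0.17 (adjusted p = 0.587) and MDM2 by -0.39 (0.127) with siRelA, and DRAM1 by -0.44 (0.154) with siRelB. SAT1 differed by -0.60 with siRelA without the siCtrl mock array, and its call was lost in 8 of 21 alternatives.

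siRelB was set against siRelA directly, a comparison that uses no siCtrl array. Of 24 members 4 were higher and 2 lower with siRelB (5.46% and 4.61% of all genes, 10.1% together; medians 0.05 and -0.01). RRM2B differed by 0.68 ± 0.14 (adjusted p = 0.00383), TP53I3 by 0.52 ± 0.12 (0.0074), XPC by 0.42 ± 0.13 (0.0449) and CCNG1 by 0.34 ± 0.10 (0.0423). DRAM1 fell by 0.49 ± 0.15 (0.0412) and POLH by 0.45 ± 0.13 (0.0294). Each of these 6 calls was lost under at least 1 alternative, and 0 remained without the siRelA mock or the siRelB mock array. The count was 2 without either of their EBSS arrays, and 3 without any 1 of the 4 Nupr1-set arrays at 3 or 6 h. XPC differed by 0.27 without the siRelA EBSS array and DRAM1 by -0.25 without the siRelA mock array.

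Whether either silencing acted differently in EBSS than in mock was tested with a spread taken from the Nupr1 set. No member was called for siRelA or siRelB, where 0.0363% (all of them higher) and 0% of all genes were. At an unadjusted p under 0.05 stood 3 members for siRelA (PLK2, PERP and DRAM1) and 2 for siRelB (MDM2 and GDF15), against 5.19% and 3.64% of all genes. PERP differed from siCtrl by 0.66 in EBSS and 1.32 in mock with siRelA. No other tool was run on these terms.

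**Figure D5:**
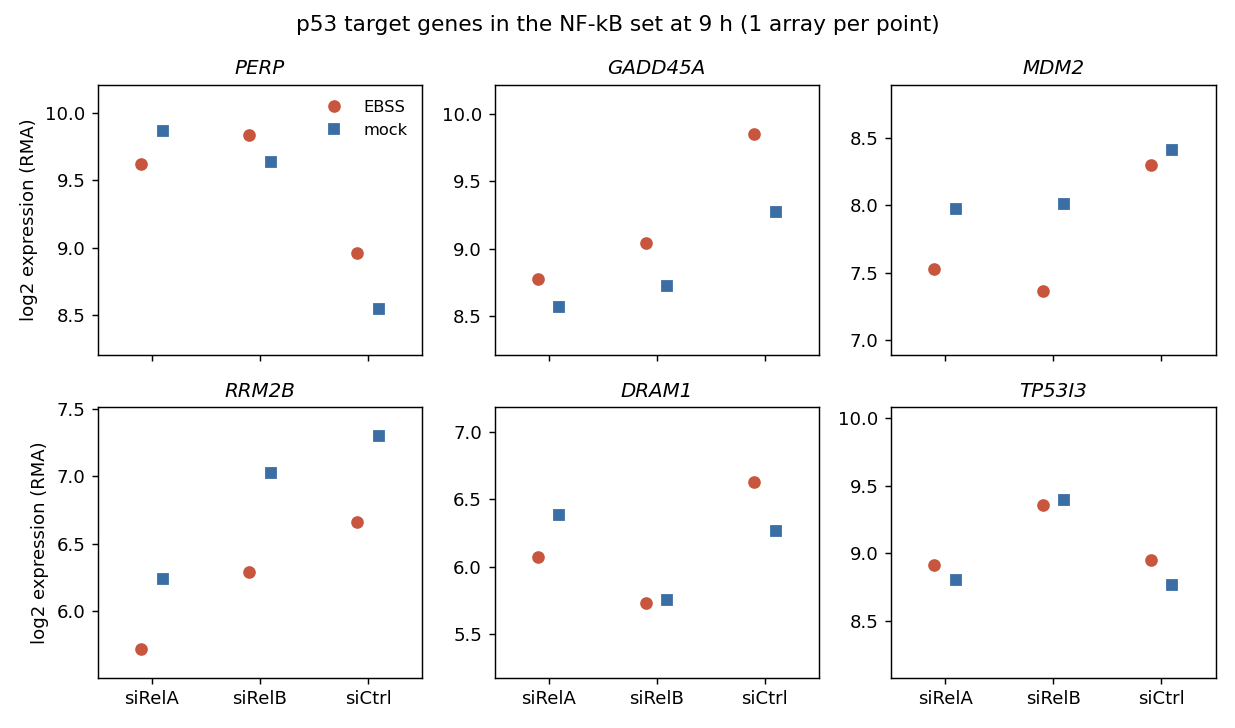
Log2 levels of p53 targets (vertical axis) in siRelA, siRelB and siCtrl cells (horizontal axis) in EBSS and in mock at 9 h, 1 array per point. GADD45A and MDM2 are lower and PERP higher in the silenced cells than in siCtrl cells in both media.

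Members of 2 families differed in the comparisons that called them. Leaving the difference between sets and the interactions aside, GADD45A was called in 8 of the 9 comparisons and GADD45B, its paralog, in none. GADD45B lay at 8.01, 8.20, 8.16 and 8.24 in siNupr1 cells and 7.95, 8.30, 7.99 and 8.39 in siCtrl cells at 0, 3, 6 and 9 h, and at 8.33 with siRelA, 8.31 with siRelB and 8.53 with siCtrl in EBSS against 8.25 with siRelA, 8.07 with siRelB and 8.29 with siCtrl in mock. Its difference at 9 h was 0.33 ± 0.12 (adjusted p = 0.0501). It was called there with quantile normalization, robust eBayes and removal of the span trend. It was also called with the mean of a gene's clusters, which changes other genes but not GADD45B's own values, read from 1 cluster. Against mock GADD45B was higher in all 3 pairs, by 0.19 ± 0.10 (0.115), and was called with quantile normalization. PLK3 rose in EBSS in both sets, while PLK2 differed by 0.20 ± 0.11 at 9 h (0.218) and fell against mock. The differences between paralogs were not tested. Of the 24 members, 22 were called in at least 1 of the 9 comparisons; the others were GADD45B and TP53I11, whose levels lay between 6.01 and 6.53 over all arrays.

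Regulators of p53 were mostly lower in the NF-kB set's starved cells. Of 22 tested on a list of p53 kinases, coactivators and inhibitors, 3 were higher and 13 lower in EBSS against mock, where 22.6% of all tested genes were higher and 29.3% lower (median -0.32, against 0.05 over all genes). ATR and ATM, the kinases that signal DNA damage to p53, fell by 1.72 ± 0.12 and 1.5 ± 0.13. KAT5, an acetyltransferase of p53, rose by 0.64 ± 0.11. Over all tested genes the EBSS against mock difference fell with genomic span (Spearman correlation -0.42). The part of span in the falls of this list was not tested. At 3 h against 0 h the list had 0 higher and 2 lower (all genes 3.27% and 9.07%), and at 6 h 2 and 6 (7.65% and 15.7%). At 9 h it had 3 higher and 6 lower (9.19% and 15.1%). ATR was among the lower at -0.72 ± 0.15 and SIRT1, a deacetylase of p53, among the higher at 0.62 ± 0.11. Against mock SIRT1 was lower, by 0.26 ± 0.09 (adjusted p = 0.0244). MDM4, the partner of MDM2, differed by 0.50 ± 0.16 at 9 h (adjusted p = 0.027) and by -0.44 ± 0.13 against mock (0.00969), the same signs as MDM2. With siNupr1 0 rose and 2 fell (all genes 9.86% and 8.58%). With siRelA 4 rose and 3 fell (10.1% and 11.4%), ATM by 0.80 ± 0.16, and with siRelB 1 rose and 0 fell (7.58% and 8.55%). TP73, a p53 relative, was called in no comparison, and its differences at 9 h and against mock were -0.24 ± 0.13 and 0.20 ± 0.10.

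A list of other p53 targets, which holds the death receptors, BCL2 family genes and sestrins, had 34 tested. Of these 7 were higher and 4 lower at 3 h against 0 h (all genes 3.27% and 9.07%), 7 and 6 at 6 h (7.65% and 15.7%) and 7 and 4 at 9 h (9.19% and 15.1%). In EBSS against mock 16 were higher and 9 lower (22.6% and 29.3%; median 0.20, against 0.05 over all genes). SESN2, a sestrin that restrains mTORC1, rose by 2.15 ± 0.22 at 9 h, the cytokine LIF by 1.79 ± 0.14 and the death receptor TNFRSF10B by 1.54 ± 0.12, while E2F7, a repressor of cell-cycle genes, fell by 1.03 ± 0.15. HSPA4L, a chaperone, fell by 1.84 ± 0.13 and TIGAR, a regulator of glycolysis, by 1.40 ± 0.11 in EBSS against mock. With siNupr1 1 rose, SFN (14-3-3 sigma, 0.53 ± 0.09), and 4 fell, LIF by 0.58 ± 0.10 among them (all genes 9.86% and 8.58%). With siRelA 5 rose and 8 fell (10.1% and 11.4%), the death receptor FAS by 0.92 ± 0.14, and with siRelB 5 rose and 5 fell (7.58% and 8.55%). SESN2 and TNFRSF10B are also known targets of the ATF4 branch of the stress response.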

How the data were processed

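The deposited values are log2 levels that the authors made with RMA (background correction, quantile normalization and probe summary), per the submitters' processing notes, which name RMA and limma without versions. The file held 28869 transcript clusters, 7807 of them unlisted in the array annotation and 1752 listed with several genes. The other clusters gave 18377 genes, by current symbol, with the brightest cluster kept for each. Genes in the dimmest 40% by mean (under 5.80 on the log2 scale) were dropped, which left 11026.

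All 14 arrays entered 1 additive model (9 columns, for set, siRNA and medium or time) in limma 3.58.1 (lmFit, eBayes with trend) in R 4.3.3, leaving 5 residual degrees of freedom and 19.6 after moderation. p-values were adjusted by Benjamini-Hochberg over all tested genes. Interactions were added in fits with 10 columns (siNupr1 by hours) and 11 columns (siRelA and siRelB by medium). The additive fit was tested on data simulated from that same model with independent noise. That test does not cover departures from additivity, and the interaction fits were not simulated. Every combination is 1 array, so the number of arrays limits the precision.

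The members, gene lists and tests were chosen with earlier results of these data known. Array values are given for CDKN1A, MDM2 and GDF15, for the 4 largest rises and 2 largest falls of a comparison and for members called in a difference of differences. Of the other lists, MDM4 and up to 4 rises and 2 falls per comparison may be named. A gene named at 9 h against 0 h may also be given against mock. Alternatives were no filter, quantile normalization, robust eBayes, array weights, a fit of 1 set alone, the mean of a gene's clusters, removal of the span trend, and leaving out each array. Spans and promoters came from RefSeq tables on GRCh38.p14. The clusters' own build is not given in the sources used here.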

Additional observations from a re-analysis of the deposited data

Results flagged for a closer look

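For 9 p53 targets the response to 9 h of EBSS differed between the NF-kB set and the Nupr1 set, by a contrast of the same limma fit with p adjusted over all genes. The value is the EBSS against mock difference minus the 9 h against 0 h difference, on the log2 scale. It was -1.24 for SAT1, -1.07 for MDM2, -0.97 for GADD45A, -0.85 for BTG1, -0.68 for GDF15, -0.65 for APAF1, -0.61 for RRM2B and -0.60 for PLK2. For PHLDA3 it was 0.50. The contrast was called for 24.5% of all tested genes. The calls of SAT1, MDM2, GADD45A, BTG1 and PLK2 held under each alternative tried, and those of GDF15, APAF1 and RRM2B were lost under at least 1. The PHLDA3 call was lost in 16 of 20 alternatives, and its value was 0.24 without the siCtrl 9 h array of the Nupr1 set. In siCtrl cells alone, which both sets hold, all 9 values had the same sign, without a test. The unstarved arrays are mock for 9 h in one set and 0 h in the other, so set, medium and time cannot be told apart. No group has 4 or more arrays, so outlying arrays within groups were not tested.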

How the results depend on the processing

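Of 86 calls of a member in a comparison, 43 held under every alternative, 43 were lost under at least 1, and 0 changed sign. For a comparison within 1 set, leaving out an array of the other set changes the estimated spread but not the difference. The mean of a gene's clusters leaves members' values unchanged, as each measured member has 1 cluster. Those alternatives could not change a sign. Without the filter on dim genes, members called numbered 3 for EBSS 9 h against 3 h and 3 for siRelB against siRelA, where the reported counts are 5 and 6. With array weights the count for EBSS 9 h against 3 h was also 3, and with a fit of the NF-kB set alone the count for siRelB against siRelA was 3. The cause was not tested. Leaving out each array in turn gave 4 to 7 members at 3 h, 6 to 11 at 6 h and 7 to 9 at 9 h against 0 h, and 1 to 7 at 9 h against 3 h. It gave 15 to 17 for EBSS against mock, 2 to 8 for siNupr1, 4 to 8 for siRelA, 4 to 7 for siRelB, 0 to 6 for siRelB against siRelA and 6 to 8 for the difference between sets. Fits that leave out an array assume that the lone array of its group varies like the others. Quantile normalization gave counts between 4 and 18 in the comparisons with calls, each within 1.5 times the reported one. The model compares arrays within siRNA, or within time or medium, and no block by replicate number was possible because the labels carry none.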
